A study of Homo sapiens with 6 samples.

Results

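The transcripts of the core machinery of autophagy and of its main ubiquitin-binding cargo receptors were followed in DB cells, an established human diffuse large B-cell lymphoma line. The genes were taken by symbol from a list of 38 names, and 37 of the 29571 rows of the deposited table carried one of them. The remaining gene, ULK2, was not analysed here. The study set cells labelled DB_ZHX2_Mut4 (Mut4 cells) against cells labelled DB_ZHX2 (ZHX2 cells), to look for pathways that differ. ZHX2 encodes a zinc finger and homeodomain transcription factor. The labels give no agent, dose, time, vector or clone, and do not say what Mut4 alters or whether each group is 1 clone. The series lists no other group, so higher and lower are relative to the other cells.

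Macroautophagy wraps cytoplasm, damaged organelles or protein aggregates in a double membrane, the autophagosome, and delivers them to lysosomes for breakdown. A kinase complex around ULK1 starts the process, a phosphoinositide kinase around PIK3C3 marks the growing membrane, and ATG2, ATG9 and WIPI proteins supply it with lipid. Ubiquitin-like ATG8 proteins (the LC3 and GABARAP proteins) are then attached to the membrane, where cargo receptors such as SQSTM1 (p62) bind them through a short motif. Much of the regulation acts on the proteins through phosphorylation and lipid attachment, which RNA levels do not show. SQSTM1 and lipidated LC3 are themselves degraded by autophagy, so their RNA level and the flux through the pathway are different quantities.

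Poly(A) RNA was sequenced, with 3 libraries labelled per group, and the level of a gene is given as FPKM, fragments scaled to transcript length and to the library's mapped fragments. Within a group the 3 deposited columns were constant multiples of one another. In Mut4 cells, columns 2 and 3 were 1.053 and 1.21 times column 1 at 23808 of 23808 genes above 0. In ZHX2 cells they were 1.33 and 0.897 times column 1 at 23368 of 23370 genes. Each group therefore holds 1 independent profile (n = 1), and the differences below have no replicate check, no error and no test. Column sums of FPKM ran between 294109 and 355116 in Mut4 cells and between 258080 and 383426 in ZHX2 cells, and the number of reads behind them is unknown. The B-cell markers MS4A1, CD79A, CD79B, PAX5 and CD22 were between 28.6 and 249 FPKM in Mut4 cells and between 23.9 and 195 FPKM in ZHX2 cells. No T-cell or myeloid marker reached 0.9 FPKM as a group mean, and the highest epithelial marker stood at 3.28 FPKM. ZHX2 itself was at 14.9 FPKM in Mut4 cells, against 18.0 in ZHX2 cells, and SLC3A2, the gene named in the study's title, had a log2 ratio of −1.40.

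Most of the autophagy machinery was at similar levels in Mut4 and ZHX2 cells, as were most genes, and the 3 genes past 1.5-fold were all lower in Mut4 cells. These were WIPI1, a reader of phosphoinositide on the forming autophagosome, MAP1LC3B (LC3B), an ATG8 protein, and the receptor SQSTM1. Ratios are log2 of mean FPKM + 1 in Mut4 cells minus the same in ZHX2 cells, a scale that understates the ratio of low genes. Genes had to reach 1 FPKM in 3 of the 6 columns. Of the 37 genes, 35 did so, ATG10 and MAP1LC3A did not, and ATG5 was set aside because its row is internally inconsistent, which left 34. In bulk RNA, fewer cells expressing a gene and less RNA per cell cannot be told apart. Of the 34 genes, 3 (8.82%) lay 1.5-fold or more below their ZHX2 level, against 2.56% of the 12643 genes passing in the whole table. None was at least 1.5-fold higher, against 2.54% of all genes. The difference lay within 0.2 on the log2 scale at 23 of the 34 genes (67.6%), against 58.3% of all genes. Without MAP1LC3B2, a gene that passed the filter through its ZHX2 columns only, 3 of 33 were lower (9.09%) and 23 of 33 within 0.2 (69.7%). The median ratio of the 34 was −0.06, beside 0.02 over all genes, and the central 95% of all genes ran between −0.59 and 0.59.

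Levels covered a modest range. The 34 genes had a median of 8.46 FPKM in Mut4 cells, against 8.75 in ZHX2 cells, and 31 of them in Mut4 cells and 30 in ZHX2 cells lay between 2 and 20 FPKM. The most abundant was GABARAP in Mut4 cells, at 33.6 FPKM, and MAP1LC3B in ZHX2 cells, at 38.7 FPKM. Since the columns of a group differ only by constants, an overlap of the groups' columns says whether a ratio exceeds those constants. All 3 Mut4 columns lay below all 3 ZHX2 columns at 5 of the 34 genes (14.7%), against 8.86% of all genes. Among these, MAP1LC3B2 passed the filter through its ZHX2 columns only, and without it the count was 4 of 33 (12.1%). The reverse held at 0 of them, against 11.0% of all genes, and the columns overlapped at the other 29.

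**Figure D1:**
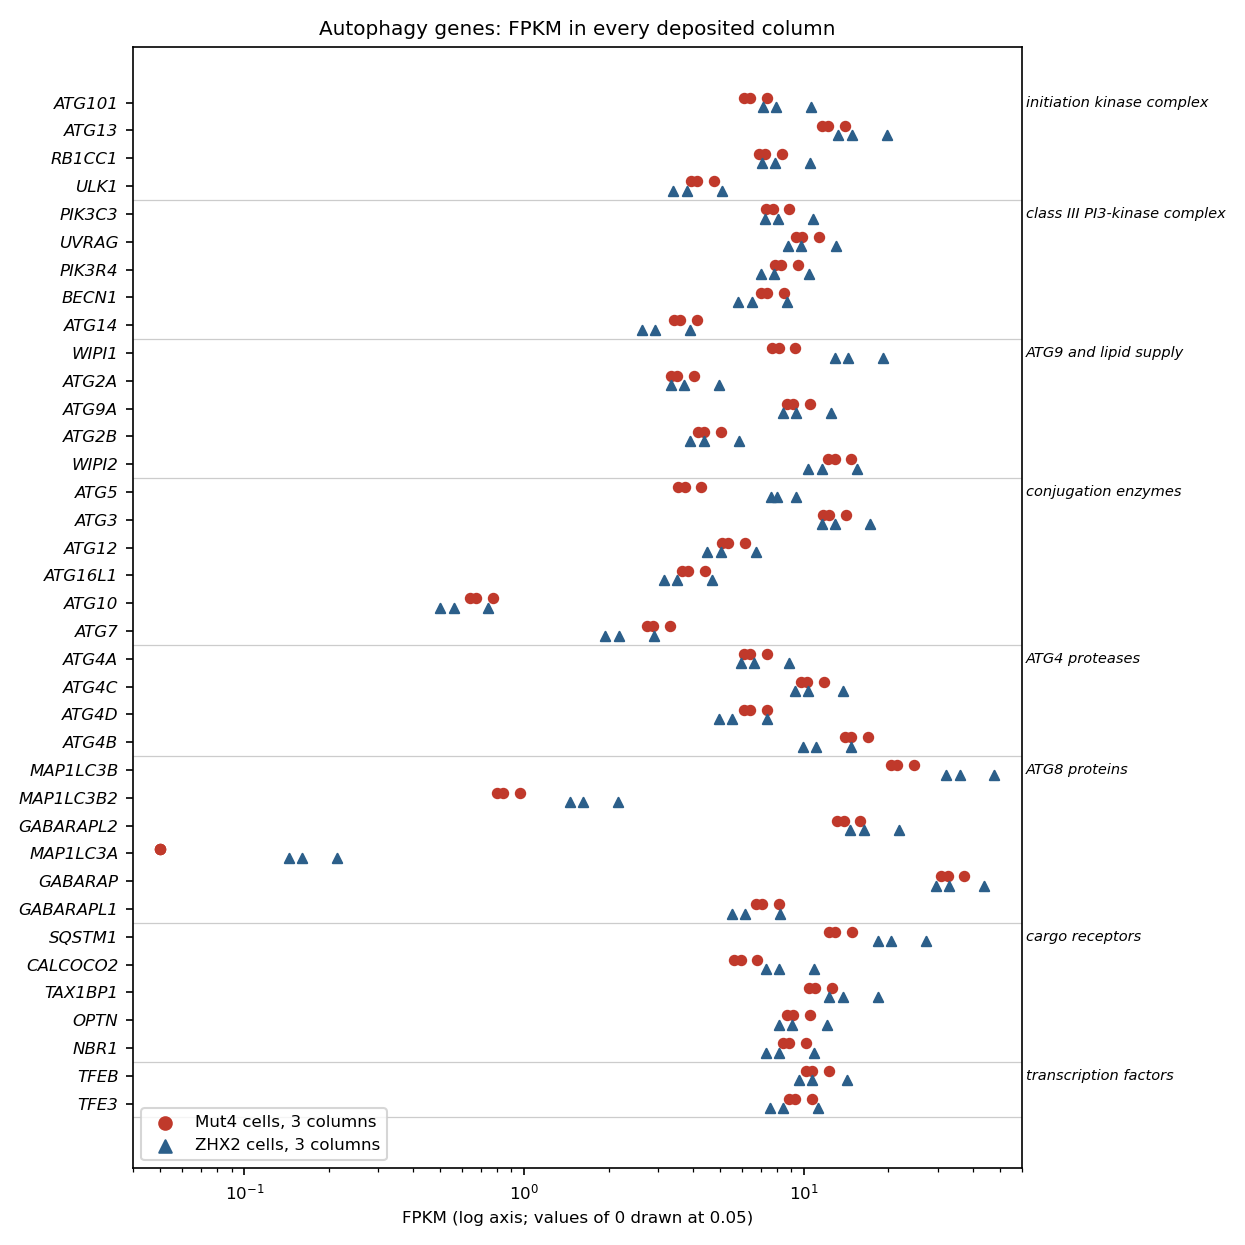
FPKM of each autophagy gene on a log axis, in the 3 Mut4 columns (red circles) and the 3 ZHX2 columns (blue triangles), grouped by role; the columns of a group are multiples of 1 profile, and values of 0 are drawn at 0.05. The red circles lie apart to the left of the blue triangles for WIPI1, MAP1LC3B, MAP1LC3B2, SQSTM1 and CALCOCO2, and also for ATG5 and MAP1LC3A, which were not counted.

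The initiation complex is a kinase, ULK1, held by the adaptors ATG13, ATG101 and RB1CC1 (FIP200). ATG101, which stabilises ATG13, was at 6.63 FPKM in Mut4 cells compared with 8.53 in ZHX2 cells (log2 ratio −0.32). ATG13, which links the kinase to the scaffold, was at 12.6 FPKM in Mut4 cells, against 15.9 in ZHX2 cells (−0.32). Both were just short of 20% lower on this scale, and the columns of the groups overlapped. RB1CC1, the large scaffold, had 7.50 FPKM in Mut4 cells compared with 8.50 in ZHX2 cells (−0.16). The kinase ULK1 had 4.27 FPKM in Mut4 cells, against 4.10 in ZHX2 cells (0.05). The median over the 4 genes was −0.24, with 3 below 0.

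The class III phosphoinositide 3-kinase makes the lipid that WIPI proteins read, and its 5 genes were all within 0.2 of 0. PIK3C3 (VPS34), the catalytic subunit, was at 7.97 FPKM in Mut4 cells compared with 8.71 in ZHX2 cells. Its regulatory subunit PIK3R4 had 8.55 FPKM in Mut4 cells, against 8.40 in ZHX2 cells. BECN1, the scaffold subunit shared by its complexes, was at 7.60 FPKM in Mut4 cells compared with 6.99 in ZHX2 cells. The alternative subunits ATG14, which directs the complex to autophagosome formation, and UVRAG, which directs it to endosomes, differed in opposite directions. ATG14 stood at 3.71 FPKM in Mut4 cells, against 3.16 in ZHX2 cells (0.18), and UVRAG at 10.2 FPKM in Mut4 cells compared with 10.5 in ZHX2 cells (−0.05). Summed over the 5 subunits the level was 37.99 FPKM in Mut4 cells, against 37.8 in ZHX2 cells.

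WIPI1 had the lowest ratio of the 34 genes on the FPKM + 1 scale. By FPKM alone the low gene MAP1LC3B2 was lower, at a ratio of 0.496, against 0.542 for WIPI1. WIPI1 lies on chromosome 17, minus strand, from 68420948 to 68457513 (GRCh38, GENCODE release 29). Its level was 7.70, 8.11 and 9.30 FPKM in the 3 Mut4 columns and 14.3, 19.1 and 12.9 FPKM in the 3 ZHX2 columns. Every Mut4 column was below every ZHX2 column. The means were 8.37 FPKM in Mut4 cells compared with 15.4 in ZHX2 cells. On the FPKM + 1 scale the log2 ratio was −0.81, or 1.75-fold lower, and 159 of all genes had a lower ratio. Ranked by FPKM within each profile, which no constant alters, WIPI1 was number 4693 in Mut4 cells and number 2546 in ZHX2 cells. Its exons share 828 bases with the opposite-strand gene ARSG, which stood at 1.76 FPKM in Mut4 cells, against 1.34 in ZHX2 cells. The libraries mark strand, but whether the counting used it is not given.

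WIPI2, a relative that reads the same lipid and recruits the conjugation machinery, was near 0. It was at 13.3 FPKM in Mut4 cells compared with 12.4 in ZHX2 cells (0.09). WIPI1 made up 38.7% of the summed FPKM of the WIPI pair in Mut4 cells and 55.4% in ZHX2 cells. The order of the pair turned over, with 0.630 of WIPI1 per WIPI2 in Mut4 cells and 1.24 in ZHX2 cells. The lipid transporters ATG2A (3.62 FPKM in Mut4 cells, 4.02 in ZHX2 cells) and ATG2B (4.54 in Mut4 cells, 4.71 in ZHX2 cells) and the scramblase ATG9A (9.46 in Mut4 cells, 10.1 in ZHX2 cells) had log2 ratios between −0.12 and −0.04.

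The RefSeq promoter window of WIPI1 is shown because it is the gene with the lowest ratio. It covers 250 bases before to 50 bases after the RefSeq start, at chr17:68457447-68457746 on GRCh38.p14, and is written along the gene's minus strand. Capitals mark CCAAT or its reverse complement, the box bound by NF-Y, which was found 248 and 201 bases before the start.

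WIPI1: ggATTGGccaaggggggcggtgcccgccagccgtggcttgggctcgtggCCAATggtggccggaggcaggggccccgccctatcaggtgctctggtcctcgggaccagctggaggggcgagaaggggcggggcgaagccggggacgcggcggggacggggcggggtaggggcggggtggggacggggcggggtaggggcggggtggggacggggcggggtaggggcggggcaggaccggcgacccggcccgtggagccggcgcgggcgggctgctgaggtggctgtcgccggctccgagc

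The enzymes that attach ATG8 proteins to lipid were at low to moderate levels and differed little on the FPKM + 1 scale. ATG7, the activating enzyme, was at 2.97 FPKM in Mut4 cells, against 2.34 in ZHX2 cells (0.25), the highest ratio of the group. The FPKM of ATG7 themselves were in the ratio 1.27, as were those of ATG4B, described below. ATG3, which carries ATG8 proteins as a conjugating enzyme, had 12.7 FPKM in Mut4 cells compared with 13.9 in ZHX2 cells (−0.13). ATG12 and ATG16L1, parts of the ligase, were within 0.06 of 0, at 5.53 and 3.97 FPKM in Mut4 cells and 5.42 and 3.79 FPKM in ZHX2 cells. ATG10, the conjugating enzyme for ATG12, was under the filter at 0.695 FPKM in Mut4 cells, against 0.602 in ZHX2 cells.

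ATG5, the partner to which ATG12 is joined, is given as listed only. The table lists 3.56, 3.74 and 4.30 FPKM in the Mut4 columns and 8.003, 9.34 and 7.59 FPKM in the ZHX2 columns. The Mut4 values follow the constants of their group, but the ZHX2 values do not, with columns 2 and 3 at 1.17 and 0.949 times column 1. In the authors' deposited table the row carries a ratio of 2.13, ZHX2 over Mut4, beside a log2 value of 0.17, which do not match. Taking Mut4 column 1, the deposited log2 value and the group's constants gives 4.003, 5.34 and 3.59 FPKM for the ZHX2 columns, and the listed values are each 4 FPKM above these. No direction was drawn for ATG5.

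ATG4 proteases trim newly made ATG8 proteins and later free them from lipid. ATG4B, the main protease for LC3, was the only one of the 34 genes at least 25% higher in Mut4 cells on the scale of FPKM + 1 (2.94%), against 11.8% of all genes. It was at 14.0, 14.7 and 16.9 FPKM in the Mut4 columns and 11.1, 14.8 and 9.93 FPKM in the ZHX2 columns. The highest ZHX2 column lay above the middle Mut4 column, so the groups overlapped. The means were 15.2 FPKM in Mut4 cells compared with 11.9 in ZHX2 cells (0.33). ATG4A was at 6.61 FPKM in Mut4 cells, against 7.12 in ZHX2 cells, ATG4C at 10.6 FPKM in Mut4 cells compared with 11.1 in ZHX2 cells, and ATG4D at 6.61 FPKM in Mut4 cells, against 5.94 in ZHX2 cells. Per transcript of ATG4A, ATG4B had a ratio of 2.30 in Mut4 cells and 1.67 in ZHX2 cells.

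Among the ATG8 genes, those of LC3B had the lowest ratios. MAP1LC3B, on chromosome 16 from 87383995 to 87404779, was at 20.5, 21.5 and 24.7 FPKM in the Mut4 columns and 35.9, 47.9 and 32.2 FPKM in the ZHX2 columns. The groups did not overlap. The means were 22.2 FPKM in Mut4 cells compared with 38.7 in ZHX2 cells. On the FPKM + 1 scale the log2 ratio was −0.77, or 1.71-fold lower, with 182 of all genes at a lower ratio. Its rank by FPKM was number 1688 in Mut4 cells and number 856 in ZHX2 cells. It shares 150 exon bases with FBXO31 on the opposite strand, which was at 3.88 FPKM in Mut4 cells, against 4.08 in ZHX2 cells.

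MAP1LC3B2 is a near-identical copy of MAP1LC3B on chromosome 12, from 116548105 to 116576448. It had 0.800, 0.842 and 0.966 FPKM in the Mut4 columns and 1.63, 2.17 and 1.46 FPKM in the ZHX2 columns, without overlap. It passed the filter only through its ZHX2 columns. The ratio was −0.56 on the log2 scale after adding 1 FPKM, just under 1.5-fold, while the FPKM themselves were in the ratio 0.496. The copy stood at 3.91% of the level of MAP1LC3B in Mut4 cells, against 4.53% in ZHX2 cells.

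The coding sequences of this pair are shown because reads from one can be counted for the other. Both run to 375 bases before the stop codon in the GENCODE transcripts and are 99.5% identical. Of 276 stretches of 100 bases, 208 are the same in both genes. The differences are C30G and A338G, the MAP1LC3B base first, then the position counted from 1 at the first coding base, then the MAP1LC3B2 base. Each is in capitals in the stretches of 60 bases below, the first pair from coding base 1 and the second from coding base 308. The levels of the copy and of the parent gene are therefore uncertain where such reads could be split.

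MAP1LC3B: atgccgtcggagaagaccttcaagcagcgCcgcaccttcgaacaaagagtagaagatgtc
MAP1LC3B2: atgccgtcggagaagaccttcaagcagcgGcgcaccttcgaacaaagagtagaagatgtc
MAP1LC3B: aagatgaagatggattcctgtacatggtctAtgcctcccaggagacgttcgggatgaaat
MAP1LC3B2: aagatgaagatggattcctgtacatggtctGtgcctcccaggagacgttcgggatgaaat

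The GABARAP branch, which acts mainly at later steps of autophagosome formation, was nearer to 0. GABARAP was at 30.9, 32.6 and 37.4 FPKM in the Mut4 columns and 33.1, 44.1 and 29.7 FPKM in the ZHX2 columns (log2 ratio of the means −0.08). GABARAPL2 (GATE-16) had 13.1, 13.8 and 15.9 FPKM in the Mut4 columns and 16.3, 21.7 and 14.6 FPKM in the ZHX2 columns (−0.28). GABARAPL1 had 6.74, 7.09 and 8.14 FPKM in the Mut4 columns and 6.14, 8.19 and 5.51 FPKM in the ZHX2 columns (0.13). The columns of the groups overlapped for all 3. GABARAP shares 571 exon bases with an opposite-strand record, AC120057.3, at 1.18 FPKM in Mut4 cells compared with 2.34 in ZHX2 cells. On the same strand, GABARAP shares 691 exon bases with the protein-coding record AC120057.2, which has no FPKM listed, so the level of GABARAP is uncertain. MAP1LC3A (LC3A) was listed at 0 in every Mut4 column and at 0.161, 0.214 and 0.144 FPKM in the ZHX2 columns, and no fold is given.

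Summed over the 6 ATG8 genes, the level was 78.3 FPKM in Mut4 cells compared with 100.4 in ZHX2 cells. MAP1LC3B took 28.4% of this sum in Mut4 cells and 38.5% in ZHX2 cells, while GABARAP took 42.9% in Mut4 cells and 35.5% in ZHX2 cells. Per GABARAP transcript there was 0.661 of MAP1LC3B in Mut4 cells and 1.09 in ZHX2 cells, so the most abundant ATG8 transcript was GABARAP in Mut4 cells and MAP1LC3B in ZHX2 cells. Shares and ratios within a family are the same in every column of a group, whatever constant the column was multiplied by.

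**Figure D2:**
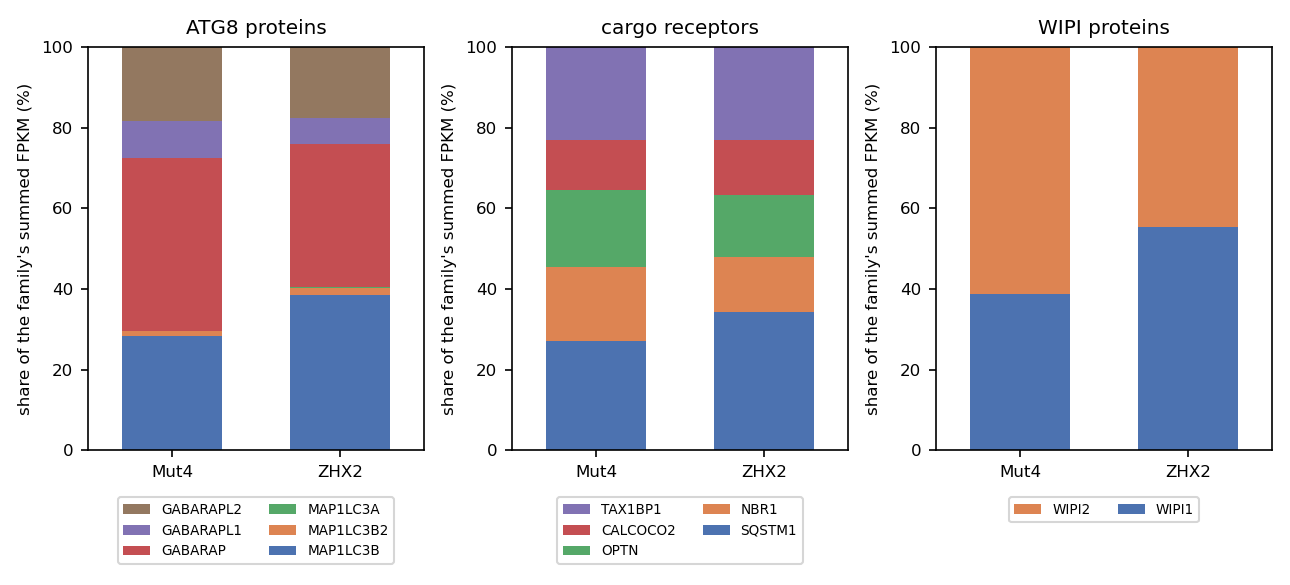
Share of each family's summed FPKM (percent) taken by each gene in Mut4 cells (left bar) and ZHX2 cells (right bar), for the 6 ATG8 genes, the 5 cargo receptors and the WIPI pair, from 1 profile per group. The blue segments at the base are smaller in Mut4 cells: MAP1LC3B at 28.4% against 38.5%, SQSTM1 at 27.0% against 34.4% and WIPI1 at 38.7% against 55.4%.

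The promoter window of MAP1LC3B, at chr16:87392086-87392385 on the plus strand of GRCh38.p14 in the RefSeq table, is shown as that of the most abundant gene at least 1.5-fold lower in Mut4 cells. Capitals mark a match to TGACNNNGC, the core of the antioxidant response element bound by NRF2, beginning 46 bases before the RefSeq start. That start lies 536 bases from the nearest principal transcript start in GENCODE.

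MAP1LC3B: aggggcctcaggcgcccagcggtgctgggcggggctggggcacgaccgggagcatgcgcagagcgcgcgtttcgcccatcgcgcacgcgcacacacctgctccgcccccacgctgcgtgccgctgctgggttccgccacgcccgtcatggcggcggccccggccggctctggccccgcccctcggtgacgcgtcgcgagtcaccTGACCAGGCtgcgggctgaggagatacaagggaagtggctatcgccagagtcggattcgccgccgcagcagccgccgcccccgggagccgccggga

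The cargo receptors bind ubiquitin or other tags on the cargo and ATG8 proteins on the membrane. SQSTM1, which also forms condensates with ubiquitinated proteins, lies on chromosome 5 from 179806398 to 179838078. It was at 12.3, 12.9 and 14.8 FPKM in the Mut4 columns and 20.4, 27.2 and 18.3 FPKM in the ZHX2 columns, without overlap. The means were 13.3 FPKM in Mut4 cells, against 22.0 in ZHX2 cells. On the FPKM + 1 scale the log2 ratio was −0.68, or 1.61-fold lower, with 237 of all genes at a lower ratio. Its rank by FPKM was number 2969 in Mut4 cells and number 1673 in ZHX2 cells. This is the gene among the 3 whose call depended on a column: without ZHX2 column 2, the ratio was −0.51, short of 1.5-fold. SQSTM1 shares 1582 exon bases with the opposite-strand gene MRNIP, which was at 8.37 FPKM in Mut4 cells compared with 8.01 in ZHX2 cells.

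CALCOCO2 (NDP52), a receptor for bacteria and mitochondria, came next. It was at 5.64, 5.94 and 6.81 FPKM in the Mut4 columns and 8.12, 10.8 and 7.29 FPKM in the ZHX2 columns. These did not overlap, and the log2 ratio of the means was −0.45. Its relative TAX1BP1 had 10.4, 11.0 and 12.6 FPKM in the Mut4 columns and 13.7, 18.3 and 12.3 FPKM in the ZHX2 columns, where the highest Mut4 column passed the lowest ZHX2 column (−0.36). TAX1BP1 shares 415 exon bases with JAZF1 on the opposite strand, which was also lower in Mut4 cells, at 3.16 FPKM, against 4.94 in ZHX2 cells, and its part in the TAX1BP1 level was not tested. WIPI1, MAP1LC3B, MAP1LC3B2, SQSTM1, CALCOCO2 and TAX1BP1 were the 6 genes at least 20% lower on the same scale (17.6%), against 9.42% of all genes. Without MAP1LC3B2 the count was 5 of 33 (15.2%).

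The remaining receptors had ratios near 0. OPTN (optineurin), a receptor for bacteria and damaged mitochondria, was at 8.66, 9.11 and 10.5 FPKM in the Mut4 columns and 9.03, 12.0 and 8.11 FPKM in the ZHX2 columns (−0.04). NBR1, which shares its domain plan with SQSTM1 and assembles with it, was at 8.39, 8.83 and 10.1 FPKM in the Mut4 columns and 8.12, 10.8 and 7.29 FPKM in the ZHX2 columns (0.05). Per NBR1 transcript there were 1.46 of SQSTM1 in Mut4 cells and 2.52 in ZHX2 cells. SQSTM1 took 27.0% of the 49.3 FPKM summed over the 5 receptors in Mut4 cells and 34.4% of 64.0 FPKM in ZHX2 cells. SQSTM1 and MAP1LC3B kept nearly the same ratio to each other, 0.599 in Mut4 cells and 0.568 in ZHX2 cells.

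**Figure D3:**
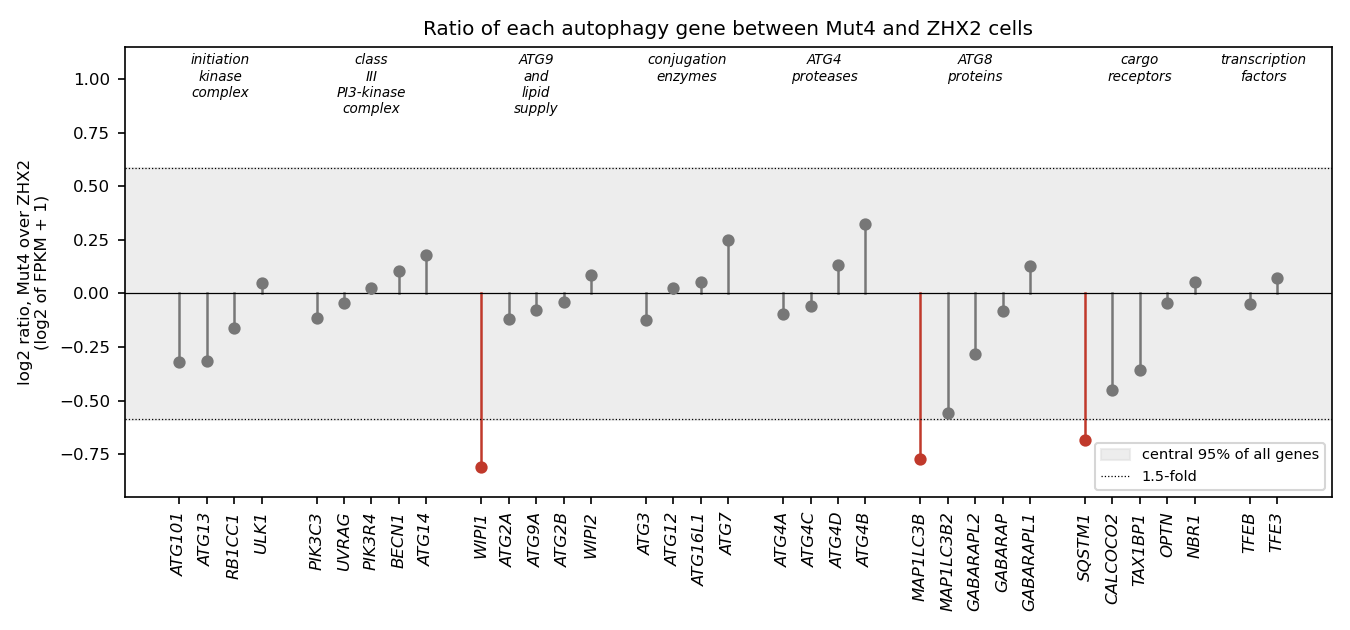
Log2 ratio of each of the 34 autophagy genes, Mut4 over ZHX2 cells on the log2(FPKM + 1) scale, ordered by role; the grey band is the central 95% of all genes and the dotted lines mark 1.5-fold. WIPI1 (−0.81), MAP1LC3B (−0.77) and SQSTM1 (−0.68) lie below the band in red, and the other 31 lie inside it.

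TFEB and TFE3, transcription factors that switch on lysosomal and autophagy genes when they enter the nucleus, had ratios near 0. TFEB was at 11.0 FPKM in Mut4 cells, against 11.5 in ZHX2 cells (−0.05), and TFE3 at 9.60 FPKM in Mut4 cells compared with 9.07 in ZHX2 cells (0.07). RNA levels say nothing of where the proteins are.

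Of the 38 genes, 34 had at least 1 window in the RefSeq promoter table, and these were searched on both strands for 4 motifs. This is not the set of 34 counted above. It holds ULK2, ATG5 and ATG10 and lacks ATG4D, RB1CC1 and UVRAG. CACGTG, the core of the element that TFEB and TFE3 bind, was found for ATG14 and ATG3, 2 of the 34 genes, and in 7.26% of all 35116 windows. TGATGNAA, the composite element bound by ATF4 with a C/EBP partner, was found for 0 of the 34 genes and in 3.62% of windows. TGACNNNGC was found for ATG101, CALCOCO2 and MAP1LC3B, 3 of the 34 genes, and in 13.3% of windows. CCAAT was found for 13 genes and in 34.6% of windows. Some genes have several windows, so the shares by gene and by window are not on the same base. No motif is common to WIPI1, MAP1LC3B and SQSTM1 in these windows. Of WIPI1, MAP1LC3B and SQSTM1, only SQSTM1 had none of the 4 motifs, in any of its 3 windows. The SQSTM1 window nearest the principal transcript start, at chr5:179820655-179820954 on the plus strand, is shown.

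SQSTM1: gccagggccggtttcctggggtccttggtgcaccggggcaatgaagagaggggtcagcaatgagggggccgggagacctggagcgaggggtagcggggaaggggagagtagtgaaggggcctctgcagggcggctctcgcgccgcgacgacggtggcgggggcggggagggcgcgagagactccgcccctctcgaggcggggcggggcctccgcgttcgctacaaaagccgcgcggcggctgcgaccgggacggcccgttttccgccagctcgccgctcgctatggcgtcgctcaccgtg

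The other genes of the pathway and its regulators were counted in the same way, over 75 names outside the core set, of which 66 passed the filter. These names include the stress-related DDIT3, CEBPB, ATF4, DDIT4 and SESN2, and the lists were chosen with earlier results of these data known. At least 1.5-fold, 1 was higher (1.52%, against 2.54% of all genes) and 5 were lower in Mut4 cells (7.58%, against 2.56% of all genes). Of the 5, 2 were nutrient-sensing genes, 2 transcription factors and 1 an ER-phagy receptor. The median ratio of the 66 was −0.10, and 44 were below 0 (66.7%, against 46.2% of all genes). The single higher gene was STX17, the SNARE that lets a closed autophagosome fuse with the lysosome, on chromosome 9 from 99906633 to 99970341. It was at 3.68, 3.87 and 4.44 FPKM in the Mut4 columns and 1.49, 1.98 and 1.34 FPKM in the ZHX2 columns, without overlap. On the FPKM + 1 scale the log2 ratio was 0.94, or 1.92-fold higher, and 70 of all genes had a higher ratio. The FPKM themselves, Mut4 over ZHX2, were in the ratio 2.49. Per transcript of its SNARE partner SNAP29 there was 0.684 of STX17 in Mut4 cells and 0.253 in ZHX2 cells. The other 14 fusion genes were within 1.5-fold, RUBCN, an inhibitor of the PIK3C3 complex, being the lowest at 5.98 FPKM in Mut4 cells, against 8.02 in ZHX2 cells (−0.37).

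The lower genes lay upstream of the core or in selective autophagy. DDIT4 (REDD1), a stress-induced inhibitor of mTORC1, was at 32.8 FPKM in Mut4 cells compared with 67.1 in ZHX2 cells (−1.01). SESN2 (sestrin 2), another stress-induced inhibitor of mTORC1, was at 16.0 FPKM in Mut4 cells, against 32.8 in ZHX2 cells (−0.99). The other 13 nutrient-sensing genes upstream of ULK1 were within 1.5-fold, and the median of this list was 0.04. Among transcription factors with autophagy targets, DDIT3 (CHOP) was at 24.4 FPKM in Mut4 cells compared with 68.2 in ZHX2 cells (−1.44), and CEBPB at 19.6 FPKM in Mut4 cells, against 38.1 in ZHX2 cells (−0.92). ATF4 acts with CHOP in the stress response and was counted in the same list. It was at 322 FPKM in Mut4 cells compared with 378 in ZHX2 cells (−0.23).

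Of 12 autophagy genes known as targets of ATF4 and CHOP in mouse fibroblasts, 10 were counted. ATG10 was under the filter, and ATG5 was set aside for its inconsistent row. All 10 are among the 34 genes already counted above, so the counts here repeat those results and add nothing to them. MAP1LC3B and SQSTM1 passed 1.5-fold, both lower in Mut4 cells, 2 of 10 beside 2.56% of all genes. None was higher, beside 2.54% of all genes. The median of the 10 was −0.03, with 5 below 0 and 5 above.

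Among ER-phagy receptors, CCPG1, a stress-induced receptor for the endoplasmic reticulum, was at 6.38 FPKM in Mut4 cells, against 11.0 in ZHX2 cells (−0.70). It shares 3405 exon bases with the readthrough record DNAAF4-CCPG1, so its level is uncertain. RTN3, a tubular ER receptor, had 26.6 FPKM in Mut4 cells compared with 34.0 in ZHX2 cells (−0.34). The mitophagy receptors BNIP3 and BNIP3L were at 9.70 and 12.0 FPKM in Mut4 cells and 14.5 and 15.9 FPKM in ZHX2 cells (−0.53 and −0.38). The list medians were −0.19 for ER-phagy and −0.12 for mitophagy. Of 3 measured receptors of other cargo, the ubiquitin-binding TOLLIP had 4.39 FPKM in Mut4 cells, against 6.14 in ZHX2 cells (−0.41), and the ferritin receptor NCOA4 had 41.2 FPKM in Mut4 cells compared with 48.6 in ZHX2 cells (−0.23). Of 11 further elongation genes none was 1.5-fold apart, the outermost being WDR45 (WIPI4), at 8.20 FPKM in Mut4 cells, against 11.8 in ZHX2 cells (−0.48), and ATG16L2, a relative of ATG16L1, at 4.38 FPKM in Mut4 cells compared with 3.06 in ZHX2 cells (0.41).

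**Figure D4:**
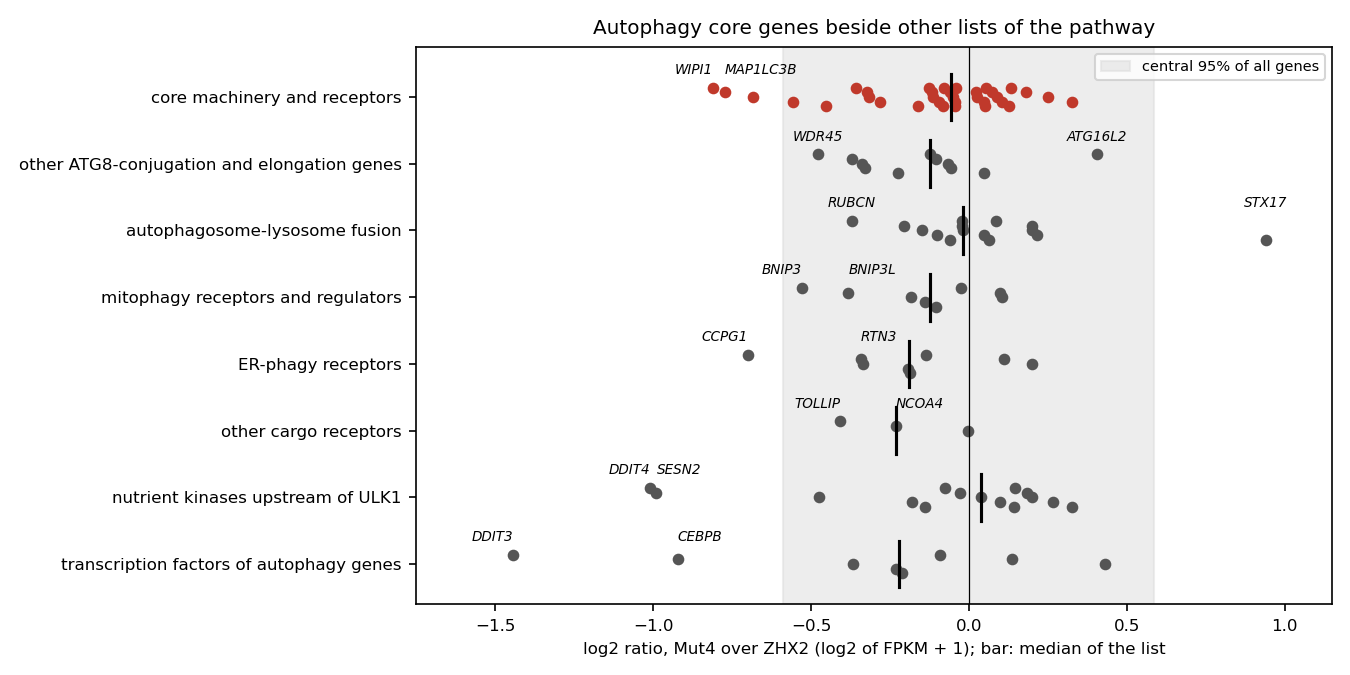
Log2 ratio, Mut4 over ZHX2 cells, of each gene passing the filter (points), with the core machinery and receptors in red at the top and the other lists of the pathway in grey; vertical bars are list medians and the grey band is the central 95% of all genes. Of the other lists, STX17 (0.94) lies right of the band, and CCPG1 (−0.70), CEBPB (−0.92), SESN2 (−0.99), DDIT4 (−1.01) and DDIT3 (−1.44) lie left of it.

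The authors' deposited table gives its own p- and q-values, and its ratios run the other way, ZHX2 over Mut4. At the authors' deposited q under 0.05, 4 of the 34 genes were lower in Mut4 cells, against 3.17% of all genes, and 0 were higher, against 2.33%. Without MAP1LC3B2, 3 of 33 were lower. In the authors' deposited table, q was 7.7e-04 for WIPI1, 0.0025 for MAP1LC3B, 0.0042 for MAP1LC3B2 and 0.0085 for SQSTM1, and 2.8e-07 for STX17. Since the deposited columns of a group are multiples of 1 profile, these values could not be checked against a spread between replicates. The authors' own mark of significance was yes for MAP1LC3B2, STX17 and the inconsistent ATG5 row. It was no for WIPI1, MAP1LC3B and SQSTM1, whose deposited ratios, ZHX2 over Mut4, were 1.86, 1.76 and 1.67. The deposited ratio was 2.03 for MAP1LC3B2 and 0.405 for STX17.

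WIPI1 and MAP1LC3B were more than 1.5-fold lower in Mut4 cells under each of the 14 alternative settings. The ratio of WIPI1 ran between −0.92 and −0.64, that of MAP1LC3B between −0.89 and −0.59, and that of SQSTM1 between −0.79 and −0.51. For the genes near 0 the sign is less certain, since leaving out a column rescales the whole profile. Without ZHX2 column 2, the median of all genes was 0.18 and 8 of 33 autophagy genes lay below 0. With all columns, 21 of 34 lay below 0 (61.8%), or 20 of 33 without MAP1LC3B2 (60.6%), against 46.2% of all genes. The median of the autophagy genes minus that of all genes stayed between −0.10 and −0.06.

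**Figure D5:**
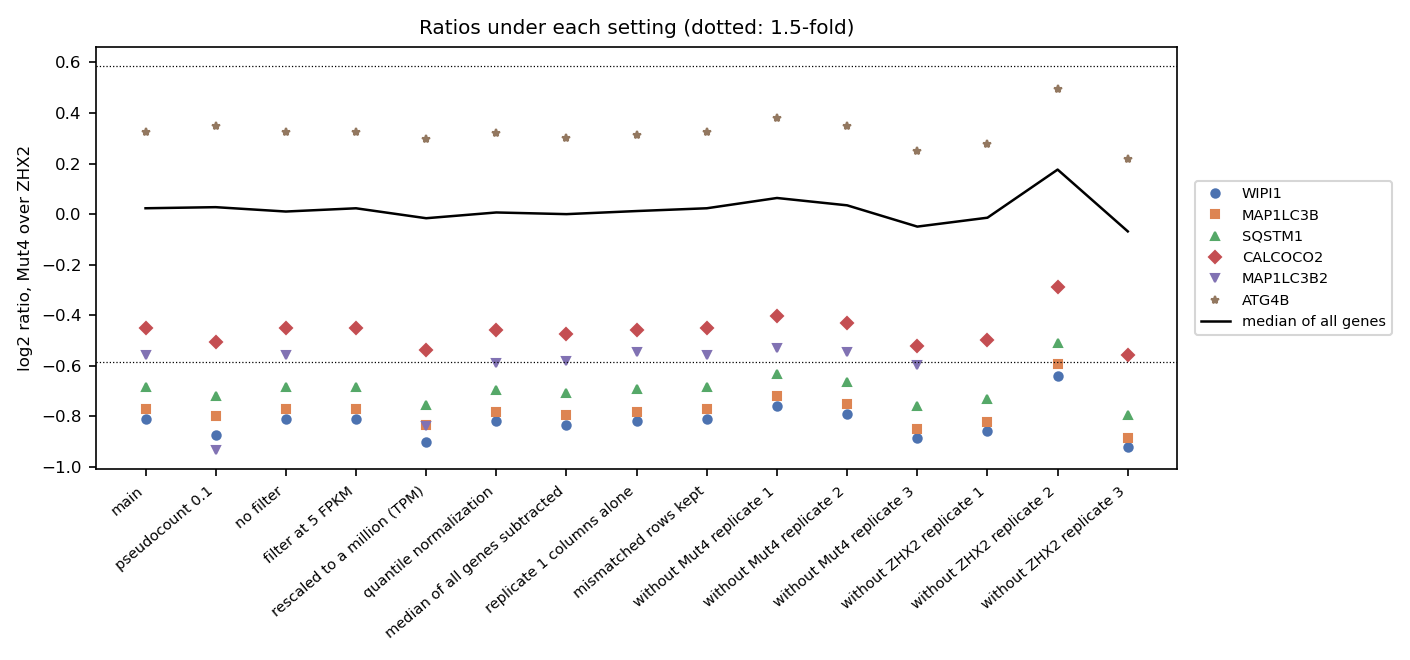
Log2 ratio, Mut4 over ZHX2 cells, of 6 autophagy genes under the main setting and 14 alternatives (x axis), MAP1LC3B2 being drawn only for the 10 in which it passed the filter, with the median of all genes as a black line and 1.5-fold as dotted lines. WIPI1 and MAP1LC3B stay beyond 1.5-fold throughout, SQSTM1 comes inside it without ZHX2 column 2, MAP1LC3B2 lies on either side, and the genes move up and down with the line when a column is left out.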

How the data were processed

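RNA-seq of DB cells was deposited as 1 table of 29571 genes. Per the labels' protocols, RNA was extracted with TRIzol, poly(A)-selected and made into strand-marked libraries with dUTP. Named in the submitters' processing notes are GRCh38, fastp, HISAT2, StringTie and edgeR, and versions are not given in the sources used here. Per the file headers, the authors deposited FPKM for each library, with a p-value, a q-value and a linear ratio per gene, also as log2. The deposited ratio is ZHX2 over Mut4, the opposite of the log2 ratios computed here.

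Within a group, columns were constant multiples of one another (relative tolerance 1e-06), so each group was counted as 1 sample, its level being the mean of its columns. The planned limma fit was not run, for want of residual degrees of freedom. Genes at 1 FPKM or more in 3 of 6 columns were kept. In 3 rows (ATG5, ACSL1, SLC7A11) the deposited FPKM, ratio and log2 value did not match, and these were left out, leaving 12643 genes. Ratios used a pseudocount of 1, and counts 1.5-fold. Counts at 25% higher or 20% lower (on the FPKM + 1 scale) were added after the data were seen.

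The members, gene lists and thresholds were chosen with earlier results of these data known. All members were named, and from the other lists the outermost 2 by absolute ratio that passed the filter, with ATF4, DDIT3, SLC3A2 and ZHX2 as context. ATF4 and DDIT3 are also in the counted list of transcription factors. Results that rest on MAP1LC3B2, which passed the filter through its ZHX2 columns only, were also counted without it, after the data were seen. Genes overlapping on either strand were found in GENCODE release 29. Promoter windows are RefSeq's (GRCh38.p14). Calculations used Python 3.11.15, numpy 2.4.6, pandas 2.3.3 and matplotlib 3.10.9. Only the ratio and the count at 1.5-fold were tried on simulated data, with large planted changes. That trial does not cover differences as small as those reported here, low genes or the other steps. Read counts were not used here, so depth is unknown and no counting interval is given. A further marker of cell type is not reported here.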

Additional observations from a re-analysis of the deposited data

How the results depend on the processing

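The alternatives were a pseudocount of 0.1, no filter, a filter at 5 FPKM, rescaling every column to 1 sum (TPM), quantile normalization, subtracting the median of all genes, the first columns alone, keeping the mismatched rows, and leaving out each column. The number of autophagy genes at least 1.5-fold lower in Mut4 cells was 2 to 4, and 0 were higher. Where it was 4, the added gene was MAP1LC3B2 or, with the mismatched rows kept, ATG5, for which no direction was drawn. Other thresholds, chosen after seeing the data, gave 6 at least 20% lower and 1 at least 25% higher, and 0 lower at 2-fold. Leaving out a column moved the median ratio of the autophagy genes between −0.16 and 0.11, because a column enters the mean with its own constant. Without ZHX2 column 2 it was 0.11 and without ZHX2 column 3 it was −0.16, where the median of all genes was 0.18 and −0.07. Of the 34 genes, 27 had a value in all 14 alternatives, 10 of which gave one for MAP1LC3B2 and 13 for each of the other 6. Where a value was given, the ratio of 15 genes kept its sign (9 below 0, 6 above), and that of 19 did not. No paired analysis was possible because, in each group, all columns are multiples of a single profile, so that a replicate number marks no sample of its own. The number of reads is unknown, and differences of low genes such as MAP1LC3B2 and ATG10 carry a counting error that cannot be given.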
